A study of Mus musculus with 12 samples.

Results

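The genes described here are 40 chemokine and chemokine receptor genes of the mouse, all outside the axis of Cxcl12, measured in mammary tumours with and without a working Rarb gene. They were chosen by name, with earlier results of these data known. A gene counts as measured through array probes whose transcript accession belongs to it. Of the 40 genes, 39 had at least 1 probe (45 probes in all) and 26 had a probe with a signal well above background on no fewer than 3 of the 12 arrays. The whole series gave 13328 such genes of 20660 named ones. Cxcl11 was matched to no probe. The other 13 genes without a kept probe were Ccl3, Ccl11, Ccl20, Ccl22, Cxcl1, Cxcl2, Cxcl5, Cxcl15, Cxcl10, Cxcl13, Ccr1, Ccr2 and Cxcr5, and they entered no test.

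All tumours came from FVB mice carrying MMTV-Wnt1, a transgene in which the promoter of mouse mammary tumour virus drives Wnt1 in mammary epithelium. KO tumours came from mice of genotype Rarb -/-, without the retinoic acid receptor beta, and WT tumours from mice of genotype Rarb +/+. Laser capture separated each tumour into stroma and epithelium, which gave 4 groups of 3 arrays: KO stroma and KO epithelium from tumours numbered 1, 3 and 4, and WT stroma and WT epithelium from tumours numbered 1, 2 and 3. Per the labels, the captured RNA was always the Cy3 channel and a universal mouse reference RNA the Cy5 channel, and dyes were not swapped, so each value below is the log2 ratio of sample over reference. The labels give no age, do not name the cells in which Rarb was lost, and do not say whether the 3 tumours of a genotype came from 3 animals, so p-values measure only the spread between these samples.

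On the 12 arrays between 35.9% and 46.3% of probes were well above background, and no spot was saturated. The Rarb probe did not separate the genotypes (KO stroma averaged 1.50 ± 0.81 and WT stroma 0.36 ± 0.89, SD over 3 arrays each; limma, adjusted p = 0.401). No source used here says whether that probe lies in the deleted part, so it checks nothing about the labels. Wnt1 averaged 3.24 ± 0.49 in KO stroma and 6.77 ± 0.37 in WT stroma, against 7.26 ± 0.27 in KO epithelium and 7.35 ± 0.28 in WT epithelium (SD, n = 3 each). The mean of 10 measured luminal epithelial markers ranged from 0.61 to 1.57 in KO stroma, but from 2.28 to 3.12 in WT stroma, which overlaps the 2.81 to 3.38 of WT epithelium. The mean of 12 fibroblast markers ranged from 2.82 to 3.28 in KO stroma and from 0.17 to 1.64 in WT stroma. In these captured tissues fewer cells of a type and less RNA per cell cannot be told apart. Stroma and epithelium had a slide each, and KO and WT arrays occupied different rows of a slide. Compartment and slide, and genotype and slide row, therefore cannot be told apart.

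WT stroma of tumour 2 stood apart from the other arrays in markers of lymphocytes. The mean of 15 T and NK cell markers was 3.26 there and at most 1.09 on the other arrays, and the mean of 4 B cell markers was 2.48 there and at most 0.36 elsewhere. Of the B cell list, Cd79a, Ms4a1, Pax5 and Blk had no kept probe, and of the T and NK cell list Cd247 and Ncr1 had none. Several results that rest on this array, but not all, are given with and without it.

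Chemokines are small secreted proteins that bind receptors coupled to inhibitory G proteins on leukocytes and direct their migration along gradients held on proteoglycans. The CC group draws mainly monocytes, eosinophils and lymphocytes, the CXC ligands with a Glu-Leu-Arg motif draw neutrophils, and those induced by interferon draw activated T cells. In tumours the ligands of CCR2 are known as recruiters of monocytes, and macrophages, fibroblasts and tumour cells can all make chemokines.

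In the CC ligands of monocytes, macrophages and granulocytes, 3 genes rose in KO stroma over WT stroma: Ccl24 (6.22-fold), Ccl9 (11.2-fold) and Ccl7 (3.29-fold). Of this group's 11 genes 9 were measured, 8 of the 9 differences were positive, and the median log2 difference was 1.72, against -0.01 for all 13328 genes. Over all roles 4 of the 26 measured genes were called in this comparison, all higher in KO, the other being Pf4, where 6.33% of all genes were called in either direction and 3.48% as higher (limma, Benjamini-Hochberg adjusted p under 0.05). No gene of the 26 was called lower, a call made for 2.84% of all genes.

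Ccl24, a ligand of CCR3 that attracts eosinophils, had log2 ratios of 0.07, 0.42 and -0.63 in KO stroma, against -2.59, -3.35 and -2.12 in WT stroma. The groups did not overlap. The log2 difference was 2.64 (SE 0.39, 95% interval 1.78 to 3.49; limma, adjusted p = 0.00685). It was higher in KO on all 3 arrays, and it remained called with any 1 stroma array left out (adjusted p from 0.00915 to 0.0318), among them WT stroma of tumour 2 (difference 2.31, adjusted p = 0.0209). In epithelium the gene measured -3.77, -4.37 and -4.25 in KO, against -3.78, -3.27 and -4.37 in WT, with signal well above background on 1 KO array and on 3 WT arrays. Of 8 mast cell and eosinophil markers 3 were measured and none was called between KO and WT stroma, and the eosinophil genes Siglecf, Prg2 and Epx had no kept probe.

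Ccl9, a CCR1 ligand of the mouse, had log2 ratios of 4.27, 3.96 and 2.21 in KO stroma, against 0.52, -1.45 and 0.90 in WT stroma. Every KO array lay above every WT array, and WT tumour 2 was the lowest of the 6. The difference was 3.49 (SE 0.79, 95% interval 1.73 to 5.25; limma, adjusted p = 0.0304). Its call was lost without KO stroma of tumour 1 (adjusted p = 0.102), KO stroma of tumour 3 (0.0869), WT stroma of tumour 1 (0.0785) or WT stroma of tumour 2 (0.0894), with differences from 2.77 to 3.76 in these fits.

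Ccl7, a CCR2 ligand that attracts monocytes, measured 0.35, -0.25 and -0.21 in KO stroma, against -1.41, -2.68 and -1.17 in WT stroma. The 3 KO arrays lay close together and above all WT arrays. The difference was 1.72 (SE 0.38, 95% interval 0.89 to 2.55; limma, adjusted p = 0.0267). Leaving out KO stroma of tumour 1, 3 or 4 gave an adjusted p of 0.0902, 0.0515 or 0.0511, and leaving out WT stroma of tumour 1 or 2 gave 0.0661 or 0.0533, so the call held only without WT stroma of tumour 3 (0.0203). In epithelium Ccl7 was well above background on 1 of 3 KO arrays and on no WT array, so the gene passed the filter mainly through stroma, and it stood at -2.53, -3.32 and -3.24 in KO epithelium, against -3.74, -3.36 and -3.36 in WT epithelium.

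Ccl2 and Ccl6 came closest to the threshold among the genes of this role that were not called. Ccl2, the main CCR2 ligand for monocytes, had log2 ratios of -1.43, -2.04 and -1.29 in KO stroma, against -2.96, -4.25 and -2.45 in WT stroma, a difference of 1.64 (SE 0.45; limma, adjusted p = 0.055). The groups did not overlap, and the difference was called without WT stroma of tumour 3 (2.02, adjusted p = 0.0309). Ccl6, a CCR1 ligand of the mouse, had log2 ratios of 8.83, 8.40 and 6.39 in KO stroma, against 5.38, 2.35 and 5.01 in WT stroma. No KO array overlapped a WT array, and WT tumour 2 was lowest. The difference was 3.63, with a wide error (SE 1.14; limma, adjusted p = 0.0871).

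Ccl8 and Ccl12 were also higher on each KO stroma array than on any WT stroma array, without a call. Ccl8, which in mice acts on CCR8, measured 9.16, 8.52 and 7.35 in KO stroma, against 6.49, 3.55 and 7.10 in WT stroma (difference 2.63, SE 1.20; limma, adjusted p = 0.234). Ccl12, a mouse ligand of CCR2, measured 4.75, 3.88 and 3.34 in KO stroma, against 2.11, 2.53 and 2.85 in WT stroma (difference 1.49, SE 0.68; adjusted p = 0.241). With the called genes and Ccl2 and Ccl6, 8 of the 26 genes were higher in KO stroma with no overlap (Ccl2, Ccl6, Ccl7, Ccl8, Ccl9, Ccl12, Ccl24 and Pf4), or 30.8%, where 13.1% of all genes were. At an unadjusted p under 0.05 the count was 9 of 26 in either direction, where 21.5% of all genes passed.

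**Figure D1:**
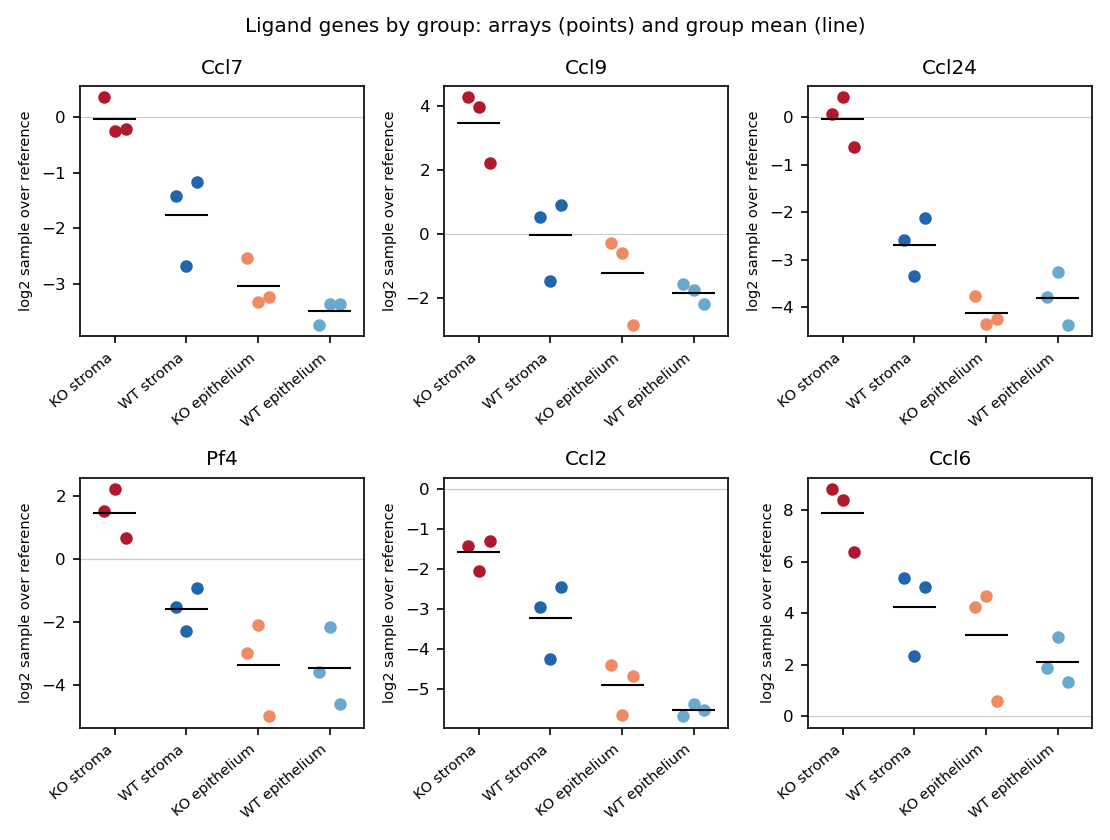
Log2 ratio of sample over reference (vertical axis, scaled per panel) of 6 ligand genes in the 4 groups; each point is an array and each line the mean of 3 arrays. In every panel the 3 KO stroma arrays lie above the 3 WT stroma arrays, and the epithelium arrays lie lower still or overlap WT stroma.

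Ccl4 and Ccl5 did not separate the genotypes in stroma. Ccl4, a product of activated macrophages and T cells, measured -2.28, -4.01 and -2.77 in KO stroma, against -3.32, -3.02 and -3.31 in WT stroma (difference 0.20, 95% interval -0.90 to 1.29). Ccl5, which T cells make, measured -1.69, -2.42 and 0.37 in KO stroma, against -3.05, 3.04 and -2.55 in WT stroma. The difference of Ccl5 was -0.39 (SE 1.63) with WT tumour 2 and 1.56 (SE 1.29, adjusted p = 0.607) without it, so its sign turned on that array.

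Several of these genes are neighbours on chromosome 11 in the RefSeq table of GRCm38.p6. Ccl5, Ccl9, Ccl6, Ccl3 and Ccl4 follow each other there, and in KO over WT stroma the log2 differences of the 4 measured ones, in that order, were -0.39, 3.49, 3.63 and 0.20. Ccl2, Ccl7, Ccl11, Ccl12 and Ccl8 also follow each other, with differences of 1.64, 1.72, 1.49 and 2.63 for the 4 measured ones. Ccl5 was at 1.56 without WT stroma of tumour 2, and then all 8 differences were positive. Differences between neighbours were not tested.

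The 250 bases before the start of Ccl9, Ccl6 and Pf4 are shown because these genes had the widest differences between KO and WT stroma among the 26, and RefSeq (GRCm38.p6) holds a window for each; it held one for 29 of the 40 genes, which do not include Ccl7 or Ccl24. Each is given on the gene's own strand from 5′ to 3′, and capitals mark matches to 1 of 4 motifs searched on both strands.
Ccl9 (chr11:83578637-83578886, minus strand): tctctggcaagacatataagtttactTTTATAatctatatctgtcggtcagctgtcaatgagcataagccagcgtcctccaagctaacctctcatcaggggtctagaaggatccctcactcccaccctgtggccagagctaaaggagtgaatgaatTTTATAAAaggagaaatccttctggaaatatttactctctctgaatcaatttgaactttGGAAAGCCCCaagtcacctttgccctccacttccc
Ccl6 (chr11:83593088-83593337, minus strand): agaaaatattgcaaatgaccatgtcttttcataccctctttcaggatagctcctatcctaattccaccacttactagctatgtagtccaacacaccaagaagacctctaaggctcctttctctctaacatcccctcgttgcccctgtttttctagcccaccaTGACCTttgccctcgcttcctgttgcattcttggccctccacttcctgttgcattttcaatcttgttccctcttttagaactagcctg
Pf4 (chr5:90772185-90772434, plus strand): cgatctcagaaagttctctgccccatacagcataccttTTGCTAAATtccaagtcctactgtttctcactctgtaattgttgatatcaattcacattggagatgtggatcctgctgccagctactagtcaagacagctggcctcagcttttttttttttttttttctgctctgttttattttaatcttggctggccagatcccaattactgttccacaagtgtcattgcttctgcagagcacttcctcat

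The motifs were that of NF-kappaB, TTGCNNAAT (C/EBP factors), AGGTCA (the core of nuclear receptor elements, retinoic acid receptors included) and TATAAA (the TATA box). The window of Ccl9 held an NF-kappaB match from -35 to -26 bases relative to the start, on the opposite strand. It held TATAAA from -224 to -219 and from -94 to -89 on the opposite strand. Another TATAAA, from -92 to -87 on the gene's own strand, overlapped that from -94 to -89. The window of Ccl6 held AGGTCA from -88 to -83 on the opposite strand, and that of Pf4 held TTGCNNAAT from -212 to -204 on its own strand. The 3 windows shared no motif. Of the 29 genes with a window 11 held AGGTCA (37.9%), and 14% of all 32851 windows did. The NF-kappaB motif occurred for 7 of 29 genes (24.1%) and in 7.25% of windows. TATAAA occurred for 8 of 29 genes (27.6%) and in 12.4% of windows, and TTGCNNAAT for 2 (6.9%) and in 2.11%. The shares of these genes count genes with a match in any window, and the others count single windows, so they are not like for like. A match is a description of the letters and says nothing of binding.

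Some macrophage markers were called in the comparison of KO with WT stroma, where 3.48% of all genes were called higher and 2.84% lower. Of 15 measured macrophage markers 4 were higher in KO stroma (C1qc, Fcer1g, Aif1 and Fcgr3), with Fcer1g, a signalling chain of Fc receptors, at a difference of 2.20 (limma, adjusted p = 0.0146) and the Fc receptor Fcgr3 at 1.49 (adjusted p = 0.0267), and 1 was lower, the endotoxin co-receptor Cd14 (-1.15, adjusted p = 0.031). The other 10 were not called. With 1 stroma array left out at a time, Fcer1g stayed called in 5 of 6 fits and Fcgr3 in 3 of 6. Aif1 stayed called in 2 of 6, and C1qc and Cd14 in 1 of 6 each. Cd68 and Cd163 had no kept probe. The mean of the list ranged from 2.64 to 3.19 in KO stroma and from 1.03 to 1.90 in WT stroma. Of 12 fibroblast markers 4 were higher in KO stroma, with Fap at 2.68 (adjusted p = 0.0216) and Col5a1 at 3.21 (adjusted p = 0.0222), and of 10 luminal epithelial markers 6 were lower, with Cldn3 at -2.34 (adjusted p = 0.00581) and Elf5 at -3.05 (adjusted p = 0.00865). Cldn3 and Elf5 stayed called in all 6 fits with a stroma array left out, Col5a1 in 2 and Fap in 1. Of the other luminal markers called lower, Esrp1 stayed called in 5 fits, and Krt8, Krt18 and Spint1 in 1 each. The other fibroblast markers called higher, Pdgfra and Col6a2, stayed called in 1 and 0. The part of these cell types in the ligands' differences was not tested. The Cy5 reference itself differed between the KO and WT stroma arrays by -0.28 to -0.08 for Ccl7, Ccl9, Ccl24 and Pf4, small beside differences of 1.64 to 3.21 in the Cy3 sample channel.

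**Figure D2:**
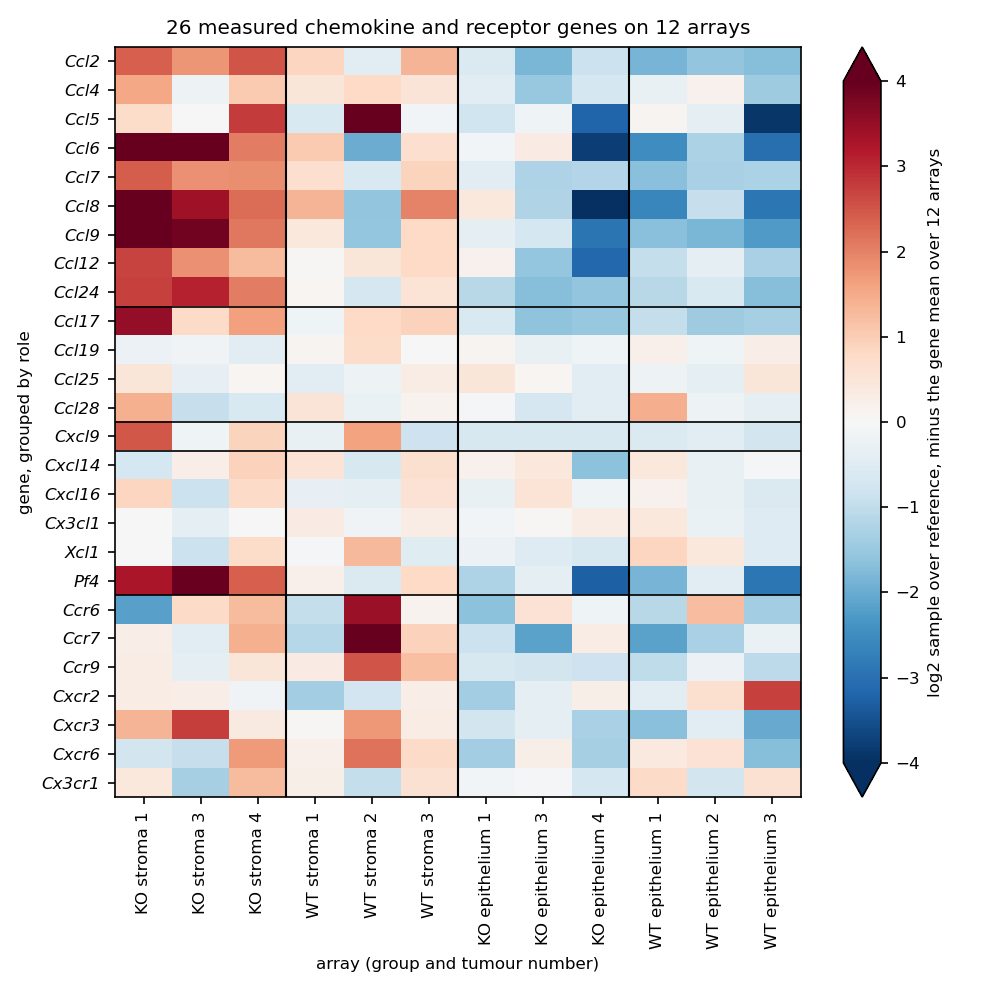
Log2 ratio of sample over reference for the 26 measured genes (rows, divided by role: CC ligands of myeloid cells, CC ligands of lymphocytes and dendritic cells, Cxcl9, other ligands, receptors) on the 12 arrays (columns), after subtracting each gene's mean over the arrays; colours stop at -4 and 4. Ccl2, Ccl6 to Ccl24 and Pf4 are highest in KO stroma, and Ccr6 and Ccr7 are highest in WT stroma of tumour 2.

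Between compartments of the same tumour, 8 of the 9 measured CC ligands of this role were higher in stroma than in epithelium in KO tumours: Ccl2, Ccl4, Ccl6, Ccl7, Ccl8, Ccl9, Ccl12 and Ccl24. In all, 11 of the 26 genes were called there, all higher in stroma, or 42.3%, where 20.1% of all genes were called in either direction and 10.2% as higher and 9.88% as lower (limma with the tumour as a block). At an unadjusted p under 0.05 the count was 13 of 26, against 35% of all genes. The other 3 were Ccl17, Pf4 and Cxcr3. The median log2 difference of the 26 genes was 1.50 and that of all genes -0.03. Non-overlap of the groups, higher in stroma, held for 14 of 26 genes and for 17.6% of all genes, and lower in stroma for 0 of 26 and 19.2%.

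Ccl9 was 4.53, 4.55 and 5.03 higher in stroma than in epithelium of KO tumours 1, 3 and 4, a mean of 4.70 (SE 0.48; limma, adjusted p = 0.00254). For Ccl2 the KO tumours gave 2.98, 3.60 and 3.39 (mean 3.32, SE 0.37, adjusted p = 0.00319), so in both genes the tumours lay less than 1 log2 unit apart. Ccl7 gave 2.89, 3.07 and 3.03 (mean 2.99, SE 0.32, adjusted p = 0.00285) and Ccl24 gave 3.85, 4.78 and 3.62 (mean 4.08, adjusted p = 0.00285). Both were well above background on 1 of 3 KO epithelium arrays. The size of these differences therefore rests on epithelial values at or near background. That of Ccl7 was 5.13 with Agilent's processed signals, and that of Ccl24 reached 5.98 under the alternatives run. Ccl12, well above background on 2 of 3 KO epithelium arrays, gave 2.52, 3.36 and 4.40 (mean 3.43, adjusted p = 0.0035).

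The tumours spread more widely for Ccl6 and Ccl8. Ccl6 was 4.58, 3.74 and 5.81 higher in stroma of the KO tumours, against epithelial ratios of 4.25, 4.66 and 0.59, so KO tumour 4 had the lowest epithelium (mean 4.71, SE 0.86; limma, adjusted p = 0.0136). Ccl8 was 3.64, 4.61 and 6.49 higher, against epithelial ratios of 5.52, 3.92 and 0.86 (mean 4.91, SE 1.05, adjusted p = 0.0216). Ccl4 was 1.95, 1.31 and 1.75 higher (mean 1.67, SE 0.29, adjusted p = 0.011). Leaving out KO tumour 1, 3 or 4 ended the call of Ccl8 (adjusted p = 0.0611, 0.0796 and 0.102), and leaving out KO tumour 1 or 4 ended that of Ccl6 (0.0632 and 0.0726) and of Ccl4 (0.0595 and 0.0585); the other 8 genes remained called.

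In WT tumours none of the 26 genes was called between compartments, and 1 gene of all 13328 (0.0075%) was. At an unadjusted p under 0.05, 15 of the 26 genes passed, where 8.77% of all genes did, and 8 of 26 were higher in stroma with no overlap (Ccl2, Ccl4, Ccl7, Ccl9, Ccl12, Ccl17, Ccr9 and Cxcr3), where 6.32% of all genes were. None of the 26 was lower in stroma with no overlap, where 4.03% of all genes were. Ccl2 was 2.72, 1.13 and 3.08 higher in stroma of WT tumours 1, 2 and 3 (mean 2.31, SE 0.37), and Ccl9 was 2.09, 0.27 and 3.07 higher (mean 1.81, SE 0.48). For Ccl6, Ccl8 and Pf4 the differences of WT tumours 1 and 3 lay between 2.05 and 4.89, while WT tumour 2 gave -0.73, -0.65 and -0.14. Ccl7 was well above background in all 3 WT stroma arrays and in no WT epithelium array, which makes it at least 2.63-fold higher in stroma (limma, adjusted p = 0.389). Without WT tumour 2, Ccl2 and Ccl7 had adjusted p of 0.0715 each, and the count of called genes stayed at 0.

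Stroma stood above epithelium in each of the 6 tumours for 9 of the 26 genes (Ccl2, Ccl4, Ccl7, Ccl9, Ccl12, Ccl17, Ccr7, Ccr9 and Cxcr3), where 8.02% of all genes did; Ccl7 was well above background on 1 of the 6 epithelium arrays. No measured gene of the 26 stood below epithelium in all 6, and 6.99% of all genes did. Of macrophage markers, 13 of 15 were called higher in KO stroma than in KO epithelium and Cd14 lower, and all 12 fibroblast markers higher. Over all genes 10.2% were called higher there and 9.88% lower.

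**Figure D3:**
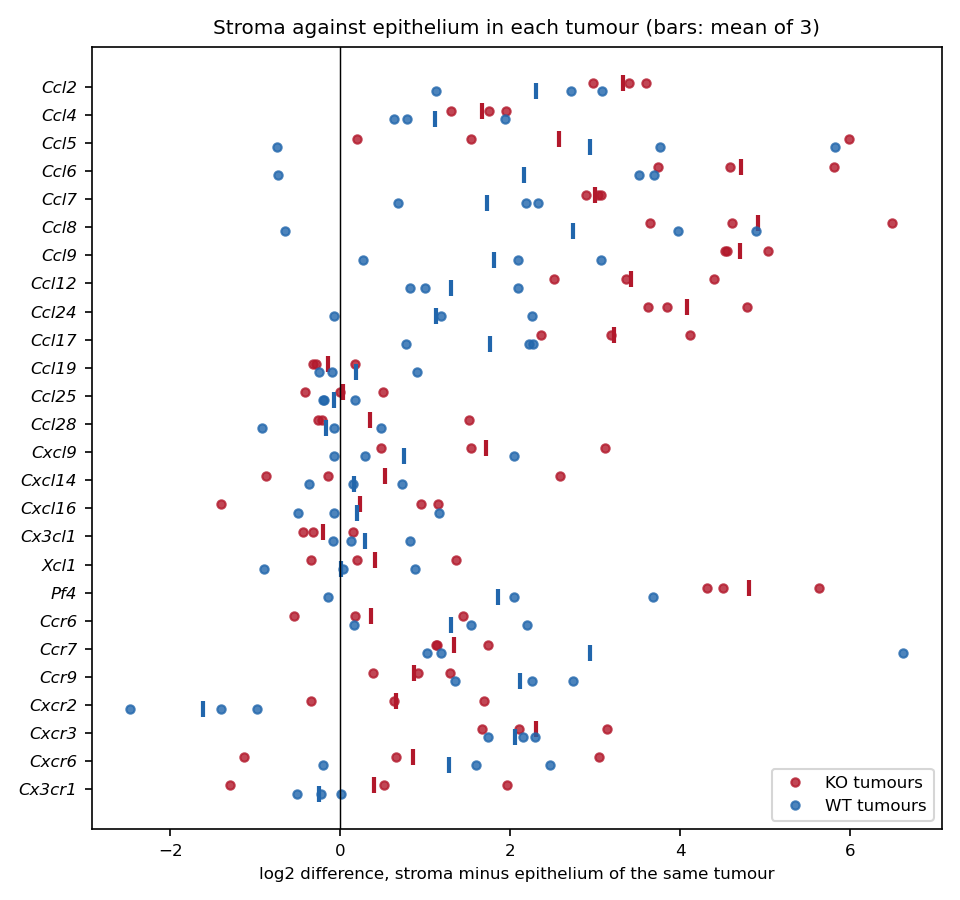
Log2 difference of stroma minus epithelium of the same tumour (horizontal axis) for the 26 measured genes (rows); points are tumours, red for the 3 KO and blue for the 3 WT tumours, and bars mark the mean of 3. The CC ligands from Ccl2 to Ccl17 and Pf4 lie to the right of 0 in every KO tumour, and the blue points of Cxcr2 lie to the left of 0 in every WT tumour.

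The CC ligands of lymphocytes and dendritic cells showed no call between KO and WT stroma (4 of 6 measured, 2 of 4 differences positive, median 0.00). Ccl17, a CCR4 ligand made by dendritic cells, measured 3.36, 0.62 and 1.51 in KO stroma, against -0.32, 0.66 and 0.79 in WT stroma. KO tumour 3 lay inside the WT range (difference 1.45, SE 0.60; limma, adjusted p = 0.185). Between compartments Ccl17 was 4.12, 2.36 and 3.18 higher in stroma of KO tumours 1, 3 and 4 (mean 3.22, SE 0.41, adjusted p = 0.00444) and 0.78, 2.23 and 2.27 higher in stroma of the WT tumours. Of 8 dendritic cell markers none was called between KO and WT stroma.

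The other genes of this role were called in no comparison. Ccl25, the ligand of CCR9, spanned -1.79 to -0.88 over all 12 arrays, and its KO over WT difference in stroma was 0.18 (95% interval -0.54 to 0.89). Ccl28, a ligand of CCR10 made by glandular epithelium, was well above background on 5 of 12 arrays, 1 of them in KO stroma and 2 in WT stroma. Ccl19, a CCR7 ligand of lymphoid tissue, was lower on each KO stroma array (-0.44, -0.35 and -0.68) than on any WT stroma array (-0.11, 0.52 and -0.20), a difference of -0.56 (SE 0.22; limma, adjusted p = 0.175) and of -0.34 without WT stroma of tumour 2 (adjusted p = 0.463). It was the only gene of the 26 lower in KO stroma with no overlap, where 13.1% of all genes were. Its 3 probes agreed in sign but not in order: in KO over WT stroma the other probes differed by -1.25 and -0.80, with groups that overlapped. Each of the 3 had its highest value in WT stroma of tumour 2. Outside that array, 1 of the other probes was higher in KO stroma (0.57, 3.04 and 0.76) than in WT stroma (-0.09 and 0.44). Ccl20, the CCR6 ligand, and Ccl22, a CCR4 ligand, were well above background on no array.

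The CXC ligands of neutrophils gave no measured gene. Cxcl1, Cxcl2 and Cxcl5 were well above background on none of the 12 sample channels, and Cxcl15 on 1, KO epithelium of tumour 3. For Cxcl1 and Cxcl5 the probes were well above background in the reference channel of all 12 arrays, so these probes did give signal on the arrays. Of 8 measured neutrophil markers 0 were called between KO and WT stroma, and the mean of the list ranged from 0.39 to 1.20 in KO stroma and from 0.79 to 1.07 in WT stroma. Ly6g, Retnlg and Ngp of that list had no kept probe.

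Among the interferon-induced ligands of CXCR3, Cxcl9 alone was measured. It was well above background on 3 arrays, KO stroma of tumours 1 and 4 and WT stroma of tumour 2, at log2 ratios of 3.17, 1.59 and 2.33, and it passed the filter through these. The third KO stroma array gave 0.54, and the other WT stroma arrays gave 0.41 and -0.11. Against KO epithelium, where it was below background on all 3 arrays, KO stroma was at least 2.54-fold higher (limma, adjusted p = 0.078). That bound takes the third KO stroma array, not well above background, at its measured signal. It holds for the probe used only. A second kept probe of Cxcl9 had a log2 difference of 0.79 between KO stroma and KO epithelium, against 1.71 for the probe used. Cxcl10 was well above background on 1 WT epithelium array and in the reference channel of all 12.

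Of the other CXC, CX3C and XC ligands, Pf4 rose in KO stroma and the other 4 measured genes were not called. Pf4, known from platelet granules and also made by macrophages, had log2 ratios of 1.53, 2.22 and 0.65 in KO stroma, against -1.53, -2.29 and -0.93 in WT stroma. No KO array overlapped a WT array. The difference was 3.05, or 8.27-fold (SE 0.79, 95% interval 1.30 to 4.79; limma, adjusted p = 0.0468). Its call lay near the threshold: leaving out any 1 of the 6 stroma arrays moved the adjusted p to between 0.0562 (without WT stroma of tumour 3) and 0.138 (without WT stroma of tumour 2), with differences from 2.67 to 3.46.

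In KO tumours Pf4 was 4.50, 4.31 and 5.63 higher in stroma than in epithelium (mean 4.81, SE 0.66; limma, adjusted p = 0.00551), and it remained called with any KO tumour left out. Its epithelial ratios were -2.97, -2.09 and -4.98 in KO and -3.58, -2.15 and -4.61 in WT. Of 6 platelet and megakaryocyte markers Itga2b, Gp9, Ppbp and Gp6 had no kept probe, and the other 2, averaging from -0.61 to 1.05 in KO stroma and from -0.77 to -0.48 in WT stroma, were not called. Of 4 erythroid markers none was called between KO and WT stroma, at a mean from 4.40 to 5.63 in KO and from 3.58 to 3.83 in WT.

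Cxcl14, Cxcl16, Cx3cl1 and Xcl1 were called in no comparison. Cxcl14, which epithelium and fibroblasts make, had a KO over WT difference of -0.01 in stroma (95% interval -1.31 to 1.28) and -0.37 in epithelium (-1.66 to 0.93). Cxcl16, the membrane-bound ligand of CXCR6, differed by 0.30 in stroma (-0.72 to 1.32) and 0.26 in epithelium (-0.76 to 1.28). Cx3cl1, the ligand of CX3CR1, had the narrowest interval of the 4, at -0.30 in stroma (-0.87 to 0.27). Xcl1, which T and NK cells make, measured 0.85, 0.56 and 0.44 in KO epithelium, against 1.94, 1.50 and 0.55 in WT epithelium, a difference of -0.71 (SE 0.52, adjusted p = 0.739) with overlap, and -0.41 without WT tumour 1 and -1.11 without WT tumour 3. Cxcl13, the B cell ligand of CXCR5, was well above background on both arrays of WT tumour 2 and on no other.

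Of 10 receptor genes 7 were measured, and none was called between genotypes. Of 15 measured T and NK cell markers and 4 B cell markers none was called between KO and WT stroma either. Ccr9, the receptor of Ccl25, had the smallest p of the 7 in stroma, at -0.90, -1.53 and -0.72 in KO, against -0.85, 1.34 and 0.02 in WT (difference -1.22, SE 0.47; limma, adjusted p = 0.159). Without WT stroma of tumour 2, the highest array, the difference of Ccr9 was -0.63 (adjusted p = 0.404). Ccr1 and Ccr2, the receptors of the Ccl6 and Ccl9 and of the Ccl2, Ccl7 and Ccl12 ligands, were well above background on no array, in sample or reference channel, so the array gives no value for the receptor side of these ligands.

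Cxcr3, a receptor of activated T cells, was higher in stroma than in epithelium in every tumour. It measured 2.35, 3.74 and 1.35 in KO stroma, against 0.25, 0.61 and -0.32 in KO epithelium, and the tumours gave 2.10, 3.14 and 1.67 (mean 2.30, SE 0.29; limma, adjusted p = 0.00437). In WT tumours it was 1.73, 2.15 and 2.29 higher in stroma. The genotype difference of these 2 means was 0.24 (95% interval -0.74 to 1.22).

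Cxcr2, the neutrophil receptor of the Glu-Leu-Arg ligands, had the smallest p of the 26 genes between KO and WT epithelium. It measured -1.29, -0.25 and 0.32 in KO epithelium, against -0.30, 0.73 and 2.85 in WT epithelium (difference -1.50, SE 0.72; limma, adjusted p = 0.638). The groups overlapped, and without WT epithelium of tumour 3, the highest array, the difference was -0.62 (adjusted p = 0.726). Stroma minus epithelium was 1.69, 0.63 and -0.35 in the KO tumours, against -0.98, -1.41 and -2.47 in the WT tumours, so it was negative in all 3 WT tumours and in 1 KO tumour. The genotype difference of stroma minus epithelium was 2.28 (SE 0.60) at an unadjusted p of 0.00749 and was not called after adjustment over all genes. Cx3cr1, the receptor of Cx3cl1 on monocytes and macrophages, measured from 2.97 to 5.57 in KO stroma and from 3.34 to 4.92 in WT stroma, a difference of 0.15 (-1.29 to 1.59). In epithelium its KO over WT difference was -0.49 (-1.93 to 0.95), and the groups overlapped. A second kept probe of Cx3cr1, dimmer and not used for the gene, differed by -0.10 in stroma and by -1.29 in epithelium. In epithelium it was lower on each KO array than on any WT array. It was well above background there on 0 KO arrays and on 3 WT arrays, so the size of that difference rests on KO values near background.

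Between KO and WT epithelium 0 of the 26 genes were called by limma, and 0 at an unadjusted p under 0.05, where 1 of all 13328 genes (0.0075%) was called and 8.09% passed unadjusted. Ccl2 measured -4.41, -5.64 and -4.69 in KO epithelium, against -5.68, -5.38 and -5.53 in WT epithelium (difference 0.62, SE 0.45, adjusted p = 0.734; 0.37 without KO tumour 1 and 0.98 without KO tumour 3). With the probe that stood for each gene, KO was higher with no overlap for 1 of the 26 genes and 9.49% of all genes. KO was lower with no overlap for 0 and 4.46%. The second probes of Ccl19 and Cx3cr1, not in these counts, were lower in KO with no overlap (-1.02 and -1.29). Both were well above background on 0 KO epithelium arrays. The 1 gene higher in KO was Ccl7, which was well above background on 1 KO epithelium array and no WT epithelium array. The order of Ccl7 is therefore mostly one of values below background. By the rule for "at least" folds Ccl7 was at least 1.26-fold higher in KO epithelium. That bound takes KO arrays not well above background at their measured signal, so it is no firm minimum. The 95% interval of the log2 difference ran from -0.38 to 1.29. For the 4 genes called in stroma the epithelial differences were 0.45 for Ccl7, 0.60 for Ccl9, -0.33 for Ccl24 and 0.10 for Pf4, and each 95% interval held 0.

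**Figure D4:**
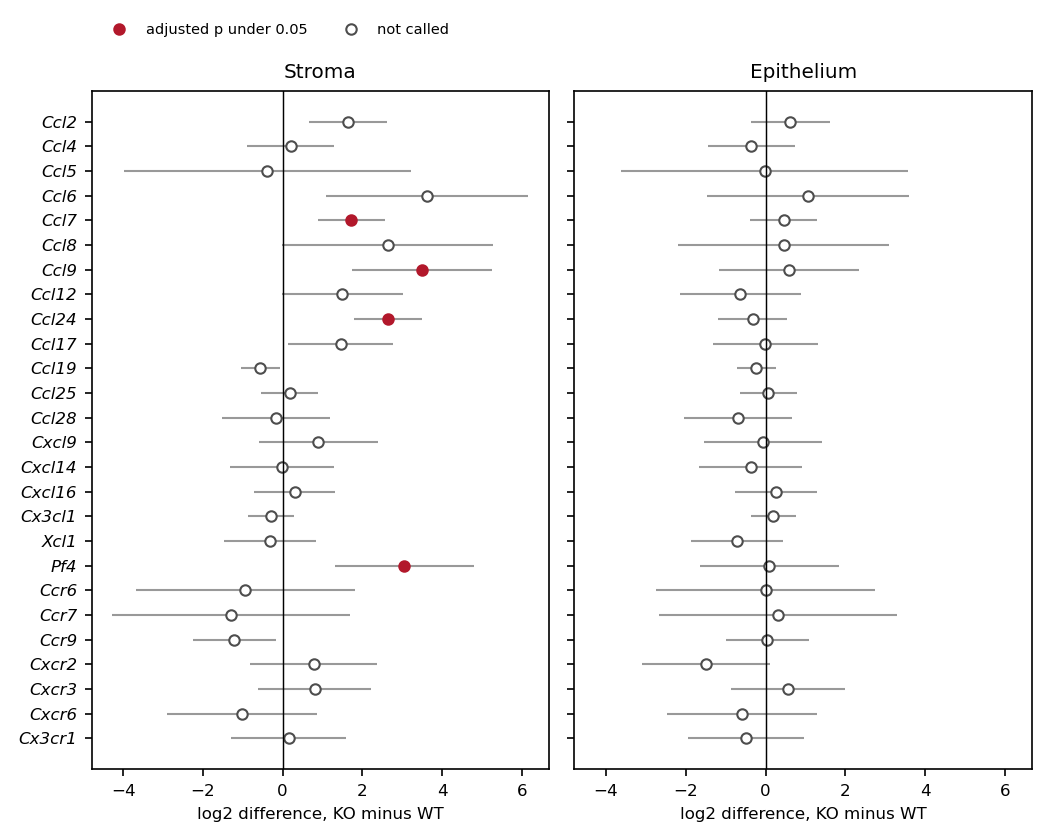
Log2 difference of KO minus WT (horizontal axis) in stroma (left) and epithelium (right) for the 26 measured genes (rows); points are estimates from 3 arrays a group and lines their 95% intervals, with called genes filled. The 4 called genes, Ccl7, Ccl9, Ccl24 and Pf4, are all in stroma and to the right of 0, and no gene is filled in epithelium.

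Whether the genotype difference itself differed between compartments was tested as the genotype difference of stroma minus epithelium. By limma 0 of the 26 genes and 0 of all genes were called, and 8 of the 26 had an unadjusted p under 0.05 (Ccl7, Ccl9, Ccl12, Ccl24, Ccl17, Pf4, Ccr9 and Cxcr2), where 18.1% of all genes did. The estimates were 2.96 for Ccl24 (SE 0.62), 2.95 for Pf4 (SE 0.93), 2.89 for Ccl9 (SE 0.67) and 1.27 for Ccl7 (SE 0.46). Without WT tumour 2 they were 2.36 for Ccl24, 1.95 for Pf4, 2.12 for Ccl9 and 0.74 for Ccl7. The calls in stroma are therefore not shown to differ from the absence of calls in epithelium.

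In the rest of the chemokine system, 11 of 21 further genes were measured and 1 was higher in KO stroma, where 6.33% of all genes were called. It was Ackr1, the atypical receptor with which venules bind and transport chemokines, at 1.29, 3.70 and 1.72 in KO stroma, against 0.16, 0.32 and 0.44 in WT stroma (difference 1.93, SE 0.49; limma, adjusted p = 0.0441). Without KO stroma of tumour 3 the difference was 1.20, and the call stayed in 2 of 6 fits that left out 1 stroma array. In KO tumours Ackr1 and Cxcl12 were higher in stroma than in epithelium (2.03 and 2.83, adjusted p = 0.0107 and 0.0251), and Ccl27a, a skin-type ligand, was lower (-1.70, adjusted p = 0.00577). Of 9 endothelial markers none was called between KO and WT stroma, with means from 1.53 to 2.57 in KO and from 1.01 to 1.58 in WT.

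Of 29 genes of chemokine receptor signalling 26 were measured, with 2 higher and 0 lower in KO stroma, a share near the 6.33% of all genes called. Gng2, a G protein gamma subunit, differed by 1.37 (SE 0.29; limma, adjusted p = 0.0251) and stayed called in 2 of the 6 fits that left out 1 stroma array. Rgs18, a regulator of G protein signalling in blood cells, was well above background on the 3 KO stroma arrays and on none of the other 9, so it passed the filter only through the group where it is high. It was at least 1.67-fold higher in KO stroma than in WT stroma (limma, adjusted p = 0.0336), a call that stayed in 1 of the 6 fits. Between compartments of KO tumours 8 of the 26 were higher in stroma and 1, Arrb1, lower, where 20.1% of all genes were called. Among them were Was, the cytoskeletal regulator of blood cells (3.32, adjusted p = 0.00389), Gng2 (2.37, adjusted p = 0.00394) and Vav1, an exchange factor of blood cells (2.59, adjusted p = 0.00442).

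Of 25 inducers of chemokine genes 13 were measured, and Tnf, Il1a, Il1b, Il6, Ifng and Nfkb1 were among the 12 without a kept probe. Csf1, the growth factor of macrophages, was the 1 called in KO over WT stroma, at -0.21, -0.03 and -0.28 in KO, against -1.22, -1.92 and -0.97 in WT (difference 1.20, SE 0.31; limma, adjusted p = 0.0476), a call that stayed in 1 of 6 fits with a stroma array left out. Between compartments of KO tumours Csf1, Nfkb2, Irf5 and Irf8 were higher in stroma, with Irf8, a transcription factor of myeloid cells, at 2.76 (adjusted p = 0.00927). Of 12 measured proteoglycan and protease partners of chemokines 1 was higher, the heparan sulphate carrier Sdc3, at 1.40, 1.46 and 1.11 in KO stroma, against -0.07, -0.05 and -0.49 in WT stroma (difference 1.53, SE 0.22, adjusted p = 0.00685). Sdc3 stayed called in all 6 such fits. The groups of Csf1 and of Sdc3 lay apart without overlap, and 1 call in 13 or in 12 genes is near the 6.33% of all genes. Sdc3 and the protease gene Mmp2 were also higher in stroma than in epithelium of KO tumours (1.87 and 2.88, adjusted p = 0.00249 and 0.0306).

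Several genes that direct lymphocytes had their highest value in WT stroma of tumour 2, and they were picked after their values were seen. Others did not: Cxcr3 was highest in KO stroma of tumour 3 (3.74, against 2.71 in WT stroma of tumour 2) and Cxcl9 in KO stroma of tumour 1 (3.17, against 2.33). Ccr7, the receptor of naive T cells and mature dendritic cells, measured 1.41, 0.74 and 2.58 in KO stroma, against 0.01, 6.49 and 2.09 in WT stroma of tumours 1, 2 and 3. Ccr6, a receptor of memory T and B cells, measured -0.19, 2.74 and 3.26 in KO stroma, against 1.05, 5.44 and 2.14 in WT stroma. In both, WT tumour 2 lay above all 5 other stroma arrays, and the KO range overlapped the rest. Cxcl13 and Cxcr5, the ligand and receptor of B cell follicles, were 4.24 and 3.04 in WT stroma of tumour 2, and 1.59 and 0.64 in WT epithelium of the same tumour. The second probe of Ccl19 gave 0.57, 3.04 and 0.76 in KO stroma, against -0.09, 7.79 and 0.44 in WT stroma. Ccl5, at 3.04, and Cxcr6, at 2.56, were also highest on this array among the 12.

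Of the 9 measured CC ligands of myeloid cells 6 were lowest on that array among the 6 stroma arrays, and so was Pf4. The 6 were Ccl2, Ccl6, Ccl7, Ccl8, Ccl9 and Ccl24. Ccl12 was lowest in WT stroma of tumour 1 (2.11), Ccl4 in KO stroma of tumour 3 (-4.01) and Ccl5 in WT stroma of tumour 1 (-3.05). Without this array the KO over WT differences in stroma were 1.12 for Ccl2, 2.68 for Ccl6, 1.26 for Ccl7, 1.55 for Ccl8, 2.77 for Ccl9, 2.31 for Ccl24 and 2.69 for Pf4, and 1 gene, Ccl24, remained called. The differences of Ccr7 and Ccr6 were -1.29 and -0.94 with the array and 0.53 and 0.34 without it, so their signs rested on it. The fit without the array has 2 WT stroma values, and the part of lymphocytes in that tumour was not tested.

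**Figure D5:**
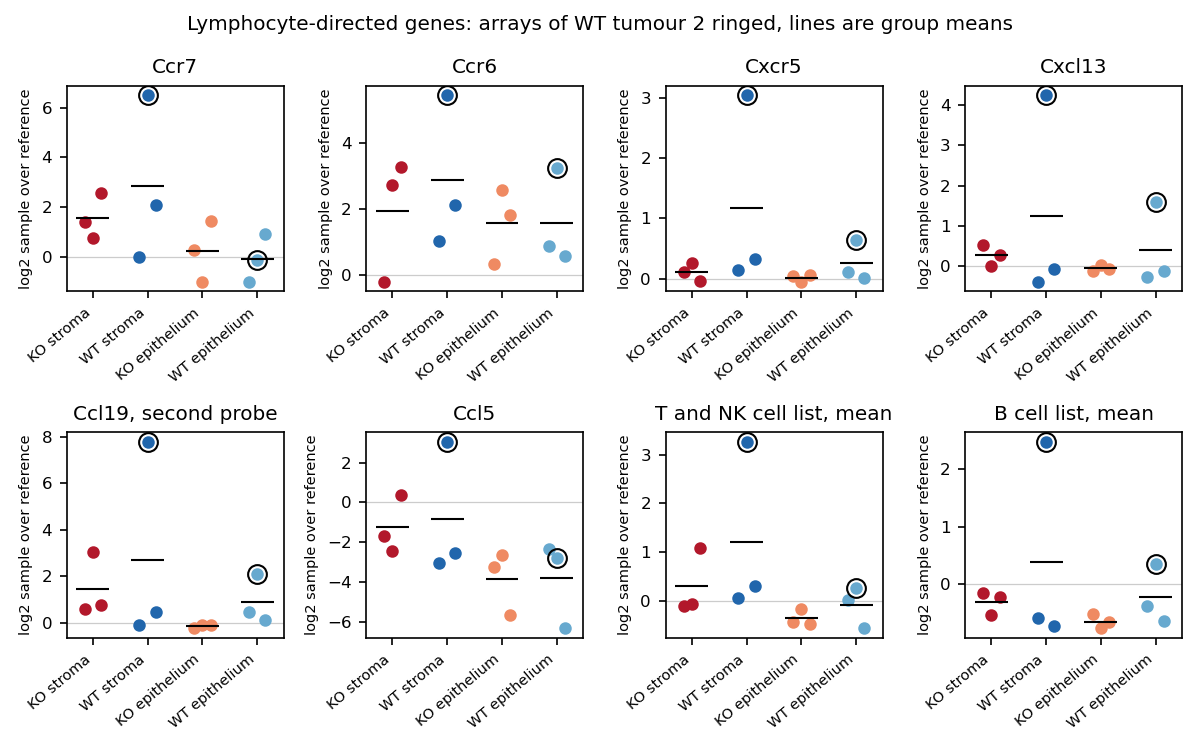
Log2 ratio of sample over reference (vertical axis, scaled per panel) for 6 lymphocyte-related probes and the means of 15 T and NK cell and 4 B cell markers in the 4 groups; points are arrays, lines group means, and rings mark the arrays of WT tumour 2. WT stroma of tumour 2 is the highest point in every panel; the probes of Cxcr5 and Cxcl13 were well above background only on the ringed arrays.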

How the data were processed

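RNA from laser-captured stroma and epithelium of 6 tumours was measured on 12 Agilent 2-colour arrays. Per the labels, captured RNA was amplified and labelled with Cy3, and reference RNA with Cy5; amplification can distort ratios. Per the file headers, spots were quantified by Agilent Feature Extraction 10.7.3.1. The deposited files give spot intensity and local background medians, processed intensity, flags and a log10 ratio. Each array has 62976 spots, 3671 of them controls. How the authors made the log2 values of the deposited table is not stated in the sources used. Its 6 epithelial columns (medians -0.04 to 0.03) ran as reference over sample (r from -0.925 to -0.895 with the scanner ratio across spots) and served as an alternative; its 6 stromal columns (medians -0.01 to 0.03) matched no scale, centring or direction of their arrays (r at most 0.00492 in size) and were not used.

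Intensities were corrected with normexp (offset 50) and loess within arrays in limma 3.58.1 (R 4.3.3), with control spots at weight 0, and turned to log2 sample over reference. Non-uniform spots were left out (211 on WT epithelium of tumour 3, at most 16 on the others). Of 55681 probes 27235 were named through RefSeq accessions (GRCm38.p6), whose build the array headers do not share, so array coordinates are not given. The brightest probe above background on at least 3 arrays stood for a gene, and the number of arrays limits precision. Genotypes were compared with 4 group means (8 residual degrees of freedom), compartments with tumour as a block (4). The design separated each tumour into both compartments, so numbers pair arrays; deviations of a tumour's 2 arrays correlated at 0.09, 0.29 and 0.23 in KO and 0.45, 0.29 and 0.25 in WT, above any other tumour of the group. P-values were adjusted over all 13328 genes. "At least" folds compare the bright group's mean Cy3 with the dim group's, each dim array at no less than the lowest signal that counted as above background. The test was run on simulated data, whose outcome is not given here, so no result above rests on it. The genes and lists were chosen with earlier results of these data known. Full values are given for genes called in any comparison and, between genotypes, for the 3 with the smallest p not called; other genes were named for completeness, and those of WT tumour 2 after their values were seen. Of each other list up to 4 called genes with the smallest p were named. Alternatives changed signals, normalization, filter, probe rule, weights, block and arrays.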

Additional observations from a re-analysis of the deposited data

How the results depend on the processing

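Leaving out 1 array at a time, 1 to 4 chemokine genes were called between KO and WT stroma and 175 to 886 of all genes; between KO and WT epithelium 0 of all genes; between compartments 8 to 10 chemokine genes and 1094 to 1227 of all genes in KO tumours, and 0 in WT tumours; for the genotype difference of stroma minus epithelium 0 to 130 of all genes. In the blocked fit leaving out an array drops its tumour. Between KO and WT stroma 4 chemokine genes were called as reported, 1 with Agilent's processed signals and 1 with median centring (Ccl24 in both), and 2 with only the 6 stroma arrays (Ccl24 and Pf4); all-gene counts were 543 (262 higher), 203 (50 higher) and 293 (143 higher), against 843 (464 higher). Pf4 also lost its call without the filter on dim probes (adjusted p = 0.0658) and with array weights (0.0527), and Ccl2 gained one with the filter on all 12 arrays (0.0466). With the tumour as a random replicate block the 4 chemokine genes stayed and 825 of all genes were called. The single epithelial call fell to 0 with processed signals, the filter on all 12 arrays, the 6 epithelial arrays alone and the deposited table. In KO tumours the filter on all 12 arrays left 15 chemokine genes tested and 7 called between compartments, and median centring 1534 of all genes. The single call between compartments of WT tumours fell to 0 with processed signals, median centring, that filter and no replicate block. The genotype difference of stroma minus epithelium gave 93 genes with that filter, 22 with no filter, 103 with array weights and 50 with no replicate block, with 0 chemokine genes in each. No chemokine gene named for a call or a small p changed sign in that comparison under the alternatives run; Ccl5, Xcl1, Ccr6, Ccr7 and Cx3cr1 did between KO and WT stroma without WT stroma of tumour 2. The causes were not tested.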
